A study of Mus musculus with 2 samples.

Results

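BMP and TGF-beta signalling in endothelial cells (ECs) was followed through 10 genes of the 21951 genes and transgene sequences in the count matrix. They are the co-receptor gene Eng, the type I receptor genes Acvrl1 and Tgfbr1, the type II receptor genes Tgfbr2 and Bmpr2, the inhibitory SMAD genes Smad6 and Smad7, and the target genes Id1, Id2 and Id3. They were listed by name for their place in the pathway, with no threshold on their values. Levels are counts of UMIs (unique molecular identifiers, which count each captured transcript once) scaled to the same total of UMIs in each group or gate, as counts per 1e6 UMIs (CPM). They were summed over the Cdh5-positive cells of 6 hashtag groups and over cells gated by UMIs of marker genes.

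The cells came from livers and hearts of mouse pups and were run as 1 pooled droplet library, in which an antibody hashtag marked the genotype and tissue of each cell. The 6 groups were control, iSuRe-Cre and iSuRe-HadCre heart and the same 3 genotypes in liver. All were of the C57BL/6 strain and 6 to 7 days old, and the protocol gives a single dose of 40 mg/kg 4-hydroxytamoxifen on postnatal day 3, with tissues taken 3 days later. ECs were sorted for CD31 and the MbTomato reporter.

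Both iSuRe genotypes carried Cdh5-CreERT2, a tamoxifen-inducible recombinase driven by the promoter of Cdh5, the gene of the endothelial cadherin that was also used here to choose cells. iSuRe-Cre is an allele that turns on Cre and MbTomato for good, and iSuRe-HadCre is a Rosa26 allele that makes Cre for a short time and then switches to the reporter. The labels name no floxed allele, whereas the study's drawing of the experiment gives the iSuRe groups floxed Notch1. The alleles of the control and the number of pups behind each group were not found in the sources used here. Each group is therefore 1 sample, no test between animals could be made, and every interval below is a 95% interval that covers counting error only.

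In this pathway a ligand joins type I and type II receptor kinases, which then phosphorylate receptor SMADs that enter the nucleus with Smad4. Acvrl1 and Eng form the receptor complex for BMP ligands circulating in blood, and mutations of either gene cause hereditary haemorrhagic telangiectasia, in which arteries and veins join without capillaries between them. The Id genes are among the direct targets of the BMP branch, and Smad6 and Smad7 are induced by the pathway and damp it.

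Of 14348 barcodes within the quality limits, 8318 held a Cdh5 UMI, and 2059 of these carried exactly 1 hashtag at its minimum and entered a group. The groups held 61 to 903 cells and 838074 to 10253165 UMIs. The smallest groups were control liver with 61 cells and iSuRe-HadCre liver with 84, and the median UMIs per cell ran from 7392 in iSuRe-HadCre heart to 16398 in iSuRe-Cre heart. Notch1 was at 137 CPM in control heart and 143 CPM in control liver, and at 12.9 to 33.5 CPM in the 4 iSuRe groups. WPRE, a sequence of the reporter cassette, was at 1021 and 867 CPM in iSuRe-HadCre heart and liver, at 63.0 and 99.1 CPM in iSuRe-Cre, and at 563 and 338 CPM in control.

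The liver label did not carry the same cells in the 3 genotypes. Stab2, a scavenger receptor gene of liver sinusoidal ECs, was at 1353 CPM in iSuRe-Cre liver, 329 CPM in iSuRe-HadCre liver and 23.9 CPM in control liver, against 2.15 to 9.87 CPM in heart. The summed level of 7 sinusoidal genes was 2923, 764 and 358 CPM in iSuRe-Cre, iSuRe-HadCre and control liver, against 72.8 to 93.9 CPM in heart, and none of the 7 was at 0 in any group. The summed level of 5 heart capillary genes was 11318 to 20922 CPM in heart and 3636 to 4652 CPM in liver. Of 5 hepatocyte genes, Ttr alone was at 1173 CPM in control liver, and the summed level of the list was 1203 CPM there and 32.3 to 373 CPM in the other groups. Free RNA, the profile of barcodes with 10 to 100 UMIs, held 504 CPM of the sinusoidal list, above control liver. It held 3267 CPM of the capillary list and 2698 CPM of the hepatocyte list. Summed levels of 5 fibroblast genes were 938 CPM in control liver, 387 to 710 CPM in the other groups and 1060 CPM in free RNA. Lymphocyte genes summed to 51.3 CPM in control liver and at most 14.0 CPM in the other groups. The part of these differences in the liver ratios below was not tested, beyond the ratios given without cells that hold Stab2.

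All 10 genes were detected in all 6 groups and passed the level used for the background, a mean of at least 50 CPM over the groups, which 3978 features passed. The plot of member levels shows each gene in each group.

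**Figure D1:**
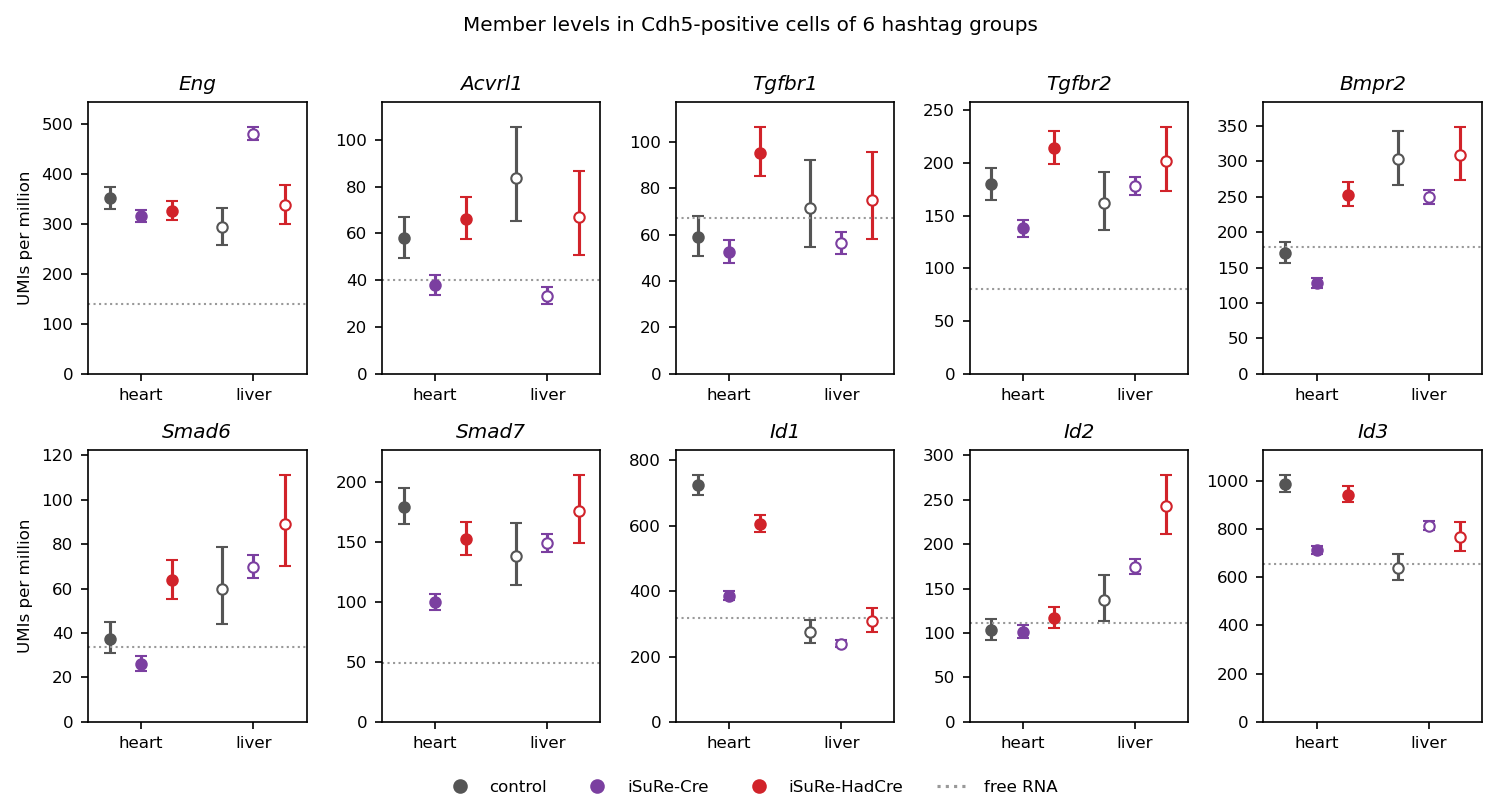
Levels of the 10 genes in Cdh5-positive cells of the 6 hashtag groups, in CPM, each panel starting at 0 with its own scale. Points are summed levels (filled for heart, open for liver), bars are 95% counting intervals and the dotted line is the level in free RNA. Id1 is higher in all 3 heart groups (386 to 724 CPM) than in the 3 liver groups (240 to 309 CPM).

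Eng (chr2:32646595-32682669, GRCm38, plus strand) encodes endoglin, the co-receptor that presents BMP ligands to Acvrl1. In heart its levels were 351, 315 and 326 CPM in control, iSuRe-Cre and iSuRe-HadCre, and in liver they were 294, 481 and 337 CPM. The iSuRe-Cre liver level, with an interval of 467 to 494 CPM, lay above the other 5, and no other neighbours in the order were separated by their intervals.

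Eng was also the member with the widest range between kinds of cells, 124-fold from the lowest to the highest of the 9 gates listed at first that held at least 50 cells. It was at 514 CPM in the Stab2 gate, 465 in the gate of Npr3, a natriuretic peptide receptor gene of the endocardium, and 276 in the gate of Tcf15 and Fabp4, genes of heart capillaries. In gates of genes of other cell types it was at 2.84 to 36.2 CPM, lowest in the gate of the neuronal genes Stmn2 and Elavl4 and highest in the gate of the neutrophil genes Ngp and Camp. Eng UMIs were seen in 89.2% of Stab2-gated cells and in 8.27% of cells gated by the keratinocyte genes Krt5 and Krt14, at median depths of 8150 and 22417 UMIs per cell. After each cell was thinned to 2000 UMIs these shares were 62.4% and 1.16%.

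Acvrl1 (chr15:101128522-101145336, plus strand) encodes ALK1, the endothelial type I receptor for BMP ligands. For control, iSuRe-Cre and iSuRe-HadCre its levels were 57.9, 37.8 and 66.2 CPM in heart and 83.5, 33.3 and 67.0 CPM in liver. The levels of the iSuRe-Cre groups were the lowest in both tissues, with intervals of 33.7 to 42.2 and 29.8 to 37.0 CPM that met neither those of control nor those of iSuRe-HadCre. Both were also at the level of free RNA, 40.1 CPM with an interval of 28.2 to 55.3, the profile of 24194 barcodes with 10 to 100 UMIs.

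Across gates Acvrl1 was at 47.5 CPM in the Tcf15 and Fabp4 gate, 46.9 in the Npr3 gate and 25.2 in the Stab2 gate. It was at 93.7 CPM in 77 cells gated by Gja5 and Vwf, genes of arterial and larger-vessel ECs. This gate was widened after its first form held 41 cells, so that cells also meeting the minimums of Tcf15 and Fabp4 could stay in it. No Acvrl1 UMI was found in the gates of Alb and Ttr, hepatocyte genes, or of Stmn2 and Elavl4, which allows levels of up to 2.30 and 2.62 CPM. The gates of the keratinocyte, collagen and glial genes held 2.55 to 6.14 CPM. It was at 15.1 CPM (8.63 to 24.5) in the macrophage gate and 23.4 CPM (14.3 to 36.1) in the neutrophil gate, with intervals that met that of the Stab2 gate, 21.3 to 29.5 CPM. Among the Cdh5-positive gates the Stab2 gate held the least Acvrl1 and the most Eng. Of its 584 cells 437 were of iSuRe-Cre liver, the hashtag group with the least Acvrl1 and the most Eng.

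Tgfbr1 (chr4:47353222-47414931, plus strand) encodes the type I receptor for TGF-beta, which most cell types carry. Hearts held 58.9 (control), 52.6 (iSuRe-Cre) and 95.3 CPM (iSuRe-HadCre), and livers held 71.6, 56.3 and 75.1 CPM. The iSuRe-HadCre heart level was the highest, and its interval, 85.1 to 106 CPM, met those of control liver and iSuRe-HadCre liver, which rest on 60 and 65 UMIs.

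Tgfbr1 was not higher in the endothelial gates than in most others. Its level was 57.4 to 84.4 CPM in the Stab2, Npr3 and Tcf15 and Fabp4 gates, 81.2 to 94.9 CPM in the gates of the keratinocyte genes, of the cartilage gene Col2a1, of the fibroblast genes Col1a2 and Col3a1, of the glial genes Fabp7 and Hes5 and of the macrophage genes C1qa, C1qb and C1qc, and 126 CPM in the Stmn2 and Elavl4 gate. Its free RNA level was 67.2 CPM.

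Tgfbr2 (chr9:116084293-116175360, minus strand) encodes the type II receptor that binds TGF-beta. Heart levels were 180, 138 and 214 CPM and liver levels were 162, 178 and 202 CPM, each in the order control, iSuRe-Cre, iSuRe-HadCre. The intervals of all 5 pairs of neighbours in the order of levels met, while those of the lowest and highest group, 130 to 146 and 199 to 230 CPM, did not.

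Unlike Tgfbr1, its partner Tgfbr2 was high in the endothelial gates, with 142 to 175 CPM in the Stab2, Npr3 and Tcf15 and Fabp4 gates. It was at 97.2 CPM in the C1qa, C1qb and C1qc gate, 55.4 in the fibroblast gate, 7.51 in the Fabp7 and Hes5 gate and 1.42 in the Stmn2 and Elavl4 gate. The glial and neuronal gates thus held Tgfbr1 (86.7 and 126 CPM) with little Tgfbr2.

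Bmpr2 (chr1:59763400-59879014, plus strand) encodes the type II receptor for BMPs, the gene most often mutated in heritable pulmonary arterial hypertension. Control, iSuRe-Cre and iSuRe-HadCre cells held 171, 128 and 253 CPM in heart and 303.1, 250.0 and 309 CPM in liver. The control and iSuRe-Cre heart groups were below the other 4 groups and apart from each other by their intervals. Across gates it was at 256 CPM in the Stab2 gate, 232 in the Npr3 gate, 160 in the Tcf15 and Fabp4 gate and 371 in the Gja5 and Vwf gate, and at 29.2 to 175 CPM in the other gates. Free RNA held 179 CPM of Bmpr2 (153 to 208), above the levels of control heart, iSuRe-Cre heart and the Tcf15 and Fabp4 gate.

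**Figure D2:**
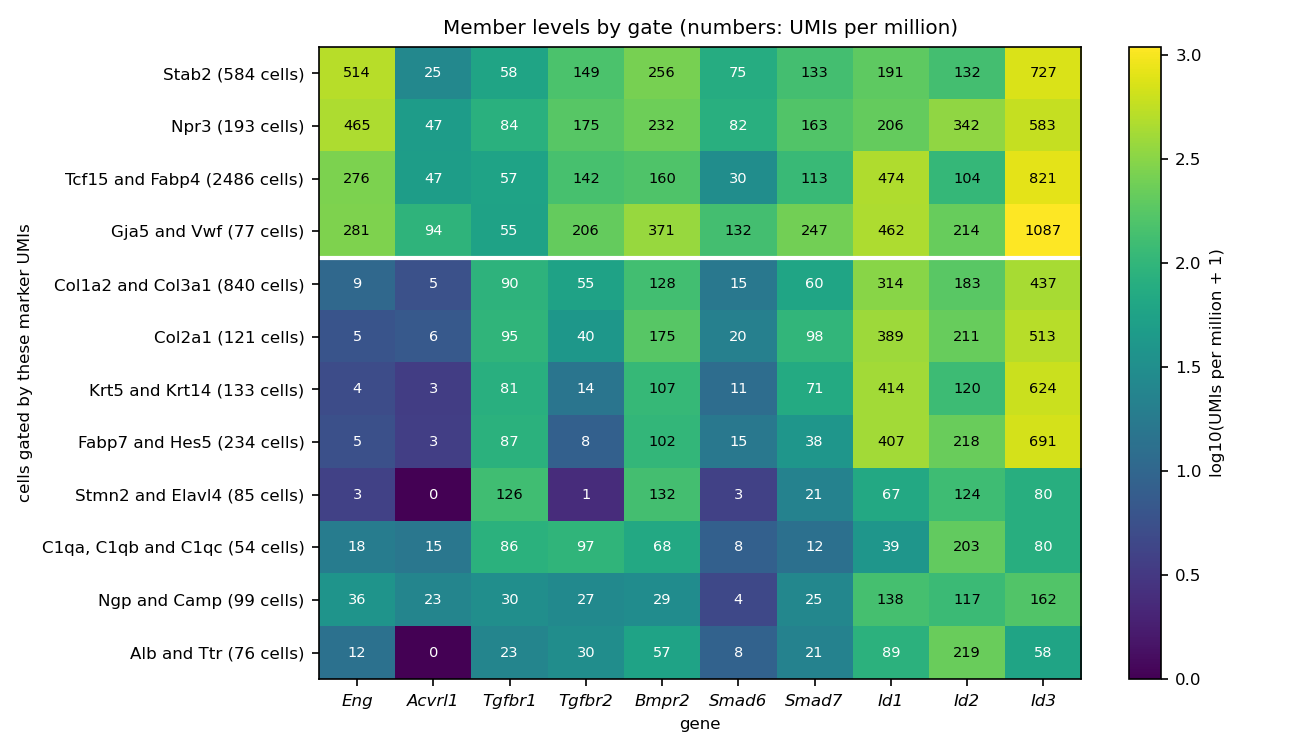
Levels of the 10 genes (columns) in cells gated by UMIs of the marker genes named at left (rows, with the number of cells), in CPM. Colour is the log10 of the level plus 1, the white line divides Cdh5-positive gates from the others, and rows are to be compared within a column. Eng and Acvrl1 are at most 36 and 23 CPM below the line, while Id1 and Id3 reach 414 and 691 CPM there.

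The gates outside the endothelium mostly held cells without a hashtag, 95.5% to 98.1% of cells in each but the Ngp and Camp gate (52.5%), so their tissue and genotype are not known. Hashtags were also missing from 20.5% of the Stab2 gate, 70.5% of the Npr3 gate and 60.2% of the Tcf15 and Fabp4 gate. Gates were named by genes alone, and no cell was counted in more than 1 reported gate. Cells of the widened Gja5 and Vwf gate could also meet the minimums of Tcf15 and Fabp4, and were then left out of that gate. Doublets were removed only where 2 hashtags or 2 gates marked a barcode.

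Smad6 (chr9:63953076-64022059, minus strand) encodes the inhibitory SMAD that acts mainly on BMP receptors. Levels in control, iSuRe-Cre and iSuRe-HadCre were 37.5, 26.2 and 63.8 CPM in heart, and 59.7, 69.8 and 88.9 CPM in liver. With intervals of 22.8 to 29.9 CPM for iSuRe-Cre heart and 30.9 to 45.1 CPM for control heart, these groups were the lowest and did not meet.

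Among gates Smad6 was at 132 CPM in the Gja5 and Vwf gate, 82.2 in the Npr3 gate, 75.2 in the Stab2 gate and 29.5 in the Tcf15 and Fabp4 gate. The other gates held 2.84 to 20.3 CPM. The Cdh5-positive gates held the most Smad6, but the capillary gate was not apart from free RNA, which was at 33.6 CPM with an interval of 22.8 to 47.7. Control heart and iSuRe-Cre heart were not apart from free RNA either.

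The start of Smad6 is printed because it holds the 8-letter palindrome GTCTAGAC, a doubled copy of the SMAD-binding letters GTCT. It is the RefSeq promoter window of GRCm38.p6, 250 bases before to 50 bases after the start, at chr9:64022010-64022309 on the minus strand. Capitals mark GTCT, read on either strand, and GGCGCC, the letters bound by SMADs of the BMP branch.
Smad6: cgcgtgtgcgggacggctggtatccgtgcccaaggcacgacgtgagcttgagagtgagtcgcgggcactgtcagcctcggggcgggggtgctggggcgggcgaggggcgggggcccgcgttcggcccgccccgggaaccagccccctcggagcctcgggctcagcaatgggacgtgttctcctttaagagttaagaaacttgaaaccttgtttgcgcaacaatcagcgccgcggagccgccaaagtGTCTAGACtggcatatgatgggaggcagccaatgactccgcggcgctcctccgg
The palindrome reads the same on both strands and contains both GTCT matches of this window. It is in 0.213% of 32851 promoter windows of this length, and in none of the windows found for other members. No window was found for Acvrl1, Smad7 or Id1, so whether theirs hold it is not known here.

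Smad7 (chr18:75367529-75395935, plus strand) encodes the inhibitory SMAD that acts on receptors of both branches. From control to iSuRe-Cre to iSuRe-HadCre, heart held 179, 99.5 and 152 CPM, and liver held 138, 149 and 176 CPM. Only the iSuRe-Cre heart level, with an interval of 92.9 to 107 CPM, was apart from its neighbour in the order. Across gates it was at 247 CPM in the Gja5 and Vwf gate, 163 in the Npr3 gate, 133 in the Stab2 gate and 113 in the Tcf15 and Fabp4 gate, and at 12.3 to 98.2 CPM in the others.

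Id1 (chr2:152736251-152737410, plus strand) encodes a helix-loop-helix protein without a DNA-binding region, which holds back partner factors and is a standard readout of BMP receptor activity. In the 3 heart groups, control, iSuRe-Cre and iSuRe-HadCre, it was at 724, 386 and 607 CPM, and in the liver groups at 274, 240 and 309 CPM. The 3 heart groups were apart from each other and above every liver group, by intervals of 694 to 755, 373 to 400 and 580 to 634 CPM in heart against an upper bound of 349 CPM in liver. Free RNA held 319 CPM of Id1, above the levels of the 3 liver groups.

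Id1 was not confined to the Cdh5-positive gates. It was at 474 CPM in the Tcf15 and Fabp4 gate and 462 in the Gja5 and Vwf gate, but at 206 in the Npr3 gate and 191 in the Stab2 gate. The keratinocyte, cartilage, fibroblast and glial gates held 314 to 414 CPM, and the macrophage, neuronal, hepatocyte and neutrophil gates held 38.7 to 138 CPM.

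Id2 (chr12:25093799-25097140, minus strand) encodes another protein of this family. Heart groups of control, iSuRe-Cre and iSuRe-HadCre held 103, 101 and 117 CPM, and the liver groups held 137, 175 and 242 CPM. The intervals of the heart groups met, and the iSuRe-HadCre liver level, 211 to 278 CPM, was above all the others.

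In the gates Id2 had an order of its own. It was at 342 CPM in the Npr3 gate, with an interval of 321 to 365, 214 in the Gja5 and Vwf gate, 132 in the Stab2 gate and 104 in the Tcf15 and Fabp4 gate. Id2 UMIs were seen in 79.8% of Npr3-gated cells (median depth 10209 UMIs) and 42.9% of Tcf15- and Fabp4-gated cells (7035 UMIs), and in 44.1% and 17.9% after thinning to 2000 UMIs, against 67.7% and 18.5% of the keratinocyte gate. Outside the endothelium it was at 117 to 219 CPM, and free RNA held 112 CPM.

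Id3 (chr4:136143497-136145755, plus strand) encodes the last protein of the family followed here. The order control, iSuRe-Cre, iSuRe-HadCre gave 988, 712 and 942 CPM in heart and 640, 814 and 767 CPM in liver. The control and iSuRe-HadCre heart levels were above the other 4, and free RNA held 653 CPM. Across gates it was at 821 CPM in the Tcf15 and Fabp4 gate, 727 in the Stab2 gate, 583 in the Npr3 gate and 1087 in the Gja5 and Vwf gate, at 437 to 691 in the keratinocyte, cartilage, fibroblast and glial gates and at 58.0 to 162 in the rest.

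The starts of Id2 and Id3 are printed, with the same source and capitals, because the Id genes are the target genes followed here. The Id2 window is chr12:25096043-25096342 on the minus strand and the Id3 window is chr4:136143572-136143871 on the plus strand. Both lie inside the gene positions given above, so the RefSeq starts used for them are downstream of the gene starts given there.
Id2: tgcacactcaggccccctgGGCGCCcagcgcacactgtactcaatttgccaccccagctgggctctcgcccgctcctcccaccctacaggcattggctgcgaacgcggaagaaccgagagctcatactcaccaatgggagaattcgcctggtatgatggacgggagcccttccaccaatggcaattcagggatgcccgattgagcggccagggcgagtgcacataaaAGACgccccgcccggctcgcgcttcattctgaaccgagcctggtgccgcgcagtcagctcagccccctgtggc
Id3: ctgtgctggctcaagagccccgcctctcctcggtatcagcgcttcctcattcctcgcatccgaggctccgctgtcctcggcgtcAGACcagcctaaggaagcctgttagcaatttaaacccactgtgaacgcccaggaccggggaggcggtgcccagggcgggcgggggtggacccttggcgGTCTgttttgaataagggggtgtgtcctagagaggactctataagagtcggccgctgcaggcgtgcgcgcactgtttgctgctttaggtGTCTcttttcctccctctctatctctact
The Id2 window held 1 GGCGCC and 1 GTCT and the Id3 window held 3 GTCT but not the first string. Of all windows, 11.9% hold GGCGCC and 88.0% hold GTCT.

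Windows were found for Eng, Tgfbr1, Tgfbr2, Bmpr2, Smad6, Id2 and Id3. Of other letters searched on both strands in them, the string TGGGAA (25.6% of all windows) was in that of Bmpr2, that of CAGGTG (20.2%) in none, and that of CACCC (57.5%) in those of Eng, Id2, Id3, Smad6 and Tgfbr2 and in 1 of 2 for Tgfbr1.

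The first question is whether the iSuRe groups differed from control in heart. They differ from it in more than the reporter allele, since the study's drawing gives them floxed Notch1. The parts of the reporter allele, Cre and floxed Notch1 in the ratios to control cannot be told apart here and were not tested. The summed level of the 5 capillary genes in heart was 20922 CPM for control, 14766 for iSuRe-Cre and 11318 for iSuRe-HadCre, with Fabp4 at 18049, 13391 and 9142 CPM. The Npr3 gate held 9 of 255, 32 of 437 and 11 of 319 cells in the same order. Ratios over the cells of the Tcf15 and Fabp4 gate alone are given beside the calls. A gene is called higher or lower here when the ratio of levels is at least 1.5 or at most 0.667. In iSuRe-Cre against control heart, 3 of the 10 genes were lower and 0 were higher, beside 7.87% of the 3978 background features lower and 4.52% higher. All 10 ratios were below 1 and their median was 0.735, against 0.963 over the background. Id1 was at 0.533 of control (0.505 to 0.563), Smad7 at 0.555 (0.498 to 0.619) and Acvrl1 at 0.652 (0.541 to 0.788).

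The other 7 ratios in iSuRe-Cre heart ran from 0.698 for Smad6 to 0.982 for Id2. Intervals that included 1 were those of Tgfbr1 and Id2. The iSuRe-Cre heart cells were the deepest, and over cells with 4000 to 20000 UMIs in every group Id2 was at 1.99 times control, while Id1 was at 0.609 and Smad7 at 0.676. Id1 stayed below 0.667 in all 12 alternatives run, between 0.512 and 0.609, while Acvrl1 did so in 7 of 12 and reached 0.857. Over the Tcf15 and Fabp4 gate Id1 was at 0.526, Smad7 at 0.504 and Acvrl1 at 0.663 of control. The study kept cells by a WPRE criterion (log-normalized WPRE above 0.5) and states no exception for control. Here that criterion was applied to the iSuRe groups only. It left 145 of 437 iSuRe-Cre cells and every control cell, and Id1 was then the only gene called.

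In iSuRe-HadCre against control heart, 2 of the 10 genes were higher and 0 were lower, beside 6.23% and 1.48% of the background. Smad6 was 1.70 times control (1.35 to 2.15) and Tgfbr1 1.62 times (1.34 to 1.95), and Bmpr2 lay just under the limit at 1.48. The control heart levels of these genes were not apart from free RNA by their intervals. Id1 was at 0.838 (0.788 to 0.890) and Smad7 at 0.850 (0.752 to 0.961), below 1 but inside the limits. The median of the 10 ratios was 1.14, against 1.07 over the background. Smad6 was past 1.5-fold in all 12 alternatives, and over the Tcf15 and Fabp4 gate it was at 2.24, Tgfbr1 at 1.71, Id1 at 0.901 and Smad7 at 1.03.

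**Figure D3:**
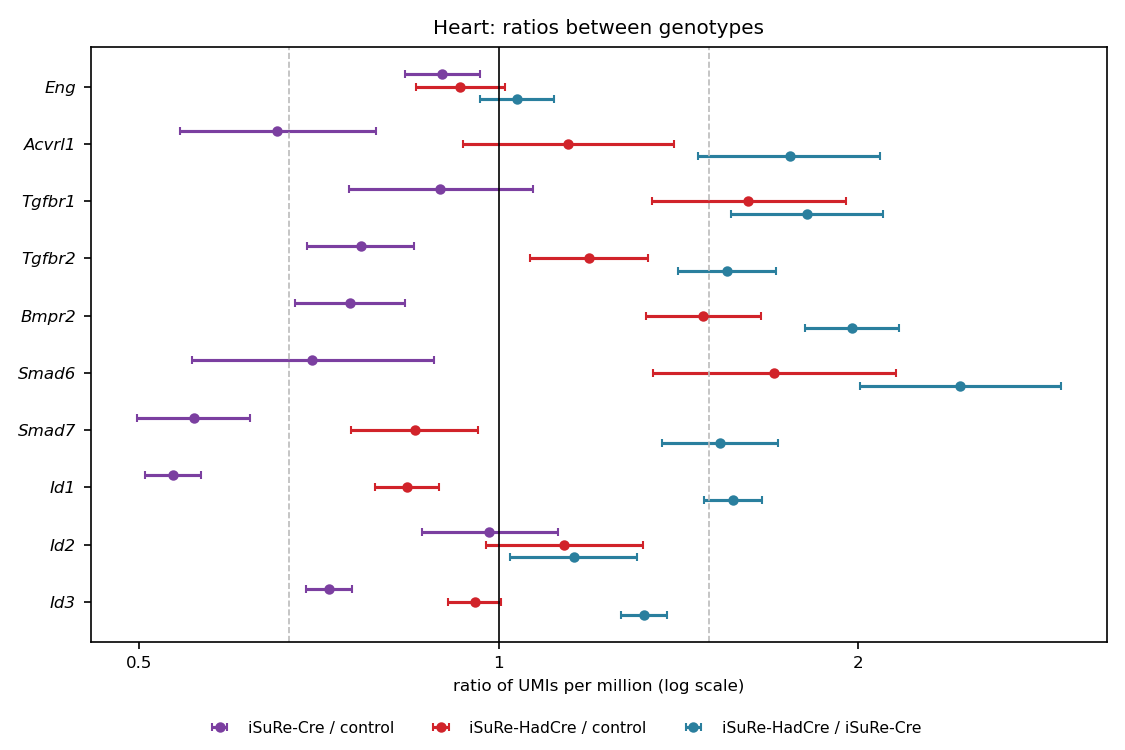
Ratios of levels between genotypes in heart (x axis, log scale) for the 10 genes, with 95% counting intervals, the line at 1 and dashed lines at 0.667 and 1.5. All 10 ratios of iSuRe-Cre to control lie below 1 and all 10 ratios of iSuRe-HadCre to iSuRe-Cre lie above it. The 3 comparisons share their groups.

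Between the alleles, iSuRe-HadCre against iSuRe-Cre heart, 7 of the 10 genes were higher and 0 lower, beside 18.9% and 3.62% of the background. These were Smad6 (2.44), Bmpr2 (1.98), Tgfbr1 (1.81), Acvrl1 (1.75), Id1 (1.57), Tgfbr2 (1.55) and Smad7 (1.53), and all 10 ratios were above 1. Eng was at 1.04 (0.964 to 1.11), while the gene of its partner receptor, Acvrl1, was among those called. The median of the 10 was 1.56 against 1.12 over the background, a shift of 0.16 on the log2 scale in all genes, and with size factors that remove that shift 4 genes were past 1.5-fold. With the WPRE criterion 3 genes were past 1.5-fold, and the median log2 ratio of the 10 was 0.434 in place of 0.643. Tgfbr1, Bmpr2 and Smad6 were past it in all 12 alternatives. In iSuRe-Cre heart Acvrl1, Tgfbr1, Bmpr2 and Smad6 were below their free RNA levels, while Id1, Tgfbr2 and Smad7 were above theirs. The 3 heart comparisons share their groups, so these ratios follow from those to control.

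In liver the question is the same, but the groups differ in Stab2 as given above, and the control holds 61 cells. In iSuRe-Cre against control liver, 1 gene was higher and 1 lower, beside 7.97% and 8.52% of the background. Eng was 1.64 times control (1.44 to 1.87) and Acvrl1 was at 0.398 (0.307 to 0.523). Id1, lower in iSuRe-Cre heart, was at 0.873 (0.762 to 1.00) in liver, and Id3 and Id2 were both at 1.27. Without the cells that hold a Stab2 UMI, Eng was at 1.30 and Acvrl1 at 0.425. Eng was past 1.5-fold in 5 of 11 alternatives, and Acvrl1 in 10 of 11. In the 3-times hashtag rule a cell's highest hashtag had to be at least 3 times the next. Its minimum was below the 25 and 140 UMIs used for the groups, so cells without a hashtag at those minimums could enter. The 6103 Cdh5-positive cells without such a hashtag held 191 CPM of Eng and 90.9 CPM of Acvrl1. Their part in the ratios under this rule was not tested. The rule put 6214 cells in iSuRe-Cre liver in place of 903, but fewer cells in every other group. Control liver then held 42 cells in place of 61. Under that rule Eng was at 0.885, Acvrl1 at 0.799 and Id3 at 0.941.

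In iSuRe-HadCre against control liver, Id2 was the only gene called, at 1.77 (1.40 to 2.24), beside 5.78% of the background higher and 3.77% lower. Smad6 was at 1.49 (1.03 to 2.17) from 77 and 50 UMIs, and the intervals of 7 of the other 8 genes included 1, Id3 at 1.20 (1.07 to 1.35) being the exception. In iSuRe-HadCre against iSuRe-Cre liver, Acvrl1 was the only gene called, at 2.01 (1.50 to 2.67), beside 7.84% higher and 5.73% lower. Under the 3-times hashtag rule Acvrl1 was at 0.608 there, past the limit in the other direction. Eng was at 0.702 (0.621 to 0.790), and at 1.20 under that rule.

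Kinds of cells were then compared within iSuRe-Cre liver. Those with at least 3 Stab2 UMIs held 537 CPM of Eng and 26.7 CPM of Acvrl1, and those with none held 413 and 40.6 CPM. The ratios were 1.30 (1.22 to 1.39) for Eng and 0.658 (0.516 to 0.840) for Acvrl1. Of the 10 genes 2 were lower, Acvrl1 and Id2, and 0 higher, beside 9.2% lower and 10.2% higher of the background. Id2 was at 0.553 (0.5005 to 0.612), with 138 CPM in the cells with Stab2 and 249 CPM in those without.

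**Figure D4:**
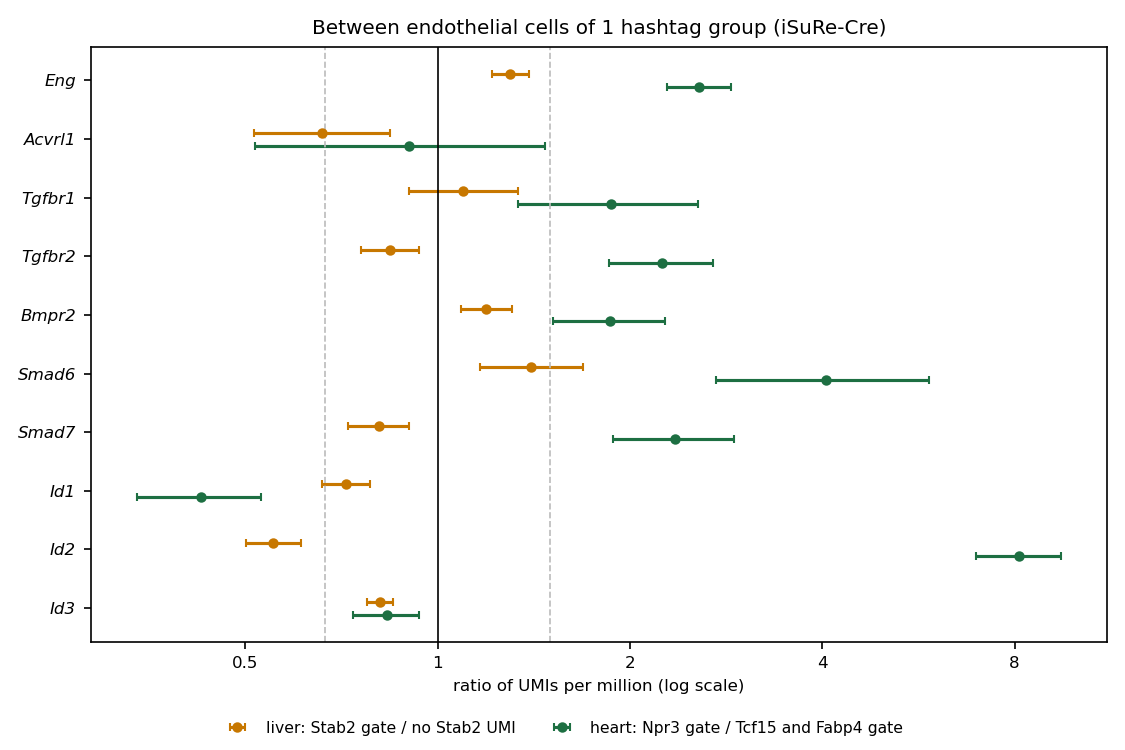
Ratios of levels between kinds of endothelial cells within iSuRe-Cre (x axis, log scale): liver cells with at least 3 Stab2 UMIs over liver cells with none, and heart cells of the Npr3 gate over those of the Tcf15 and Fabp4 gate. Bars are 95% counting intervals and dashed lines mark 0.667 and 1.5. Id2 is at 0.553 in the liver comparison and 8.12 in the heart comparison.

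In heart the same was done for the Npr3 gate, 32 iSuRe-Cre cells, against the Tcf15 and Fabp4 gate, 346 cells. Here 7 of the 10 genes were higher and 1 lower, beside 21.7% and 20.3% of the background. Id2 was 8.12 times higher (6.97 to 9.45), at 553 against 68.1 CPM, and Smad6 4.05 times (2.73 to 5.88). Eng (2.57), Smad7 (2.35), Tgfbr2 (2.24), Tgfbr1 (1.87) and Bmpr2 (1.86) were also higher. Id1 was the gene that was lower, at 0.425 (0.338 to 0.528).

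Over all cells of the gates, whatever their hashtag, Npr3 against Tcf15 and Fabp4 gave Id2 at 3.30, Smad6 at 2.78, Eng at 1.69 and Id1 at 0.435, which made 3 higher and 1 lower beside 10.9% and 12.5% of the background. Stab2 against Tcf15 and Fabp4 gave Smad6 at 2.54, Eng at 1.87 and Bmpr2 at 1.60, with Acvrl1 at 0.530 and Id1 at 0.404, or 3 higher and 2 lower beside 11.2% and 11.0%. Id1 was thus lower and Eng and Smad6 higher in the endocardial and sinusoidal gates than in the capillary gate. These 2 comparisons share the capillary gate. The tagged cells of the Stab2 gate were mostly of iSuRe-Cre liver, while the capillary gate mixed the genotypes. The part of genotype in the Stab2 ratios was not tested, beyond the comparison within iSuRe-Cre liver.

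Liver was compared with heart within each genotype. In control, Bmpr2 (1.77) and Smad6 (1.59) were higher and Id1 (0.379) and Id3 (0.648) lower in liver, 2 and 2 of the 10 genes beside 10.6% and 10.5% of the background. In iSuRe-Cre, Smad6 (2.67), Bmpr2 (1.95), Id2 (1.72) and Eng (1.53) were higher and Id1 (0.620) lower, 4 and 1 beside 11.7% and 8.9%. Eng was past 1.5-fold there in 4 of 11 alternatives and was at 0.770 under the 3-times hashtag rule, and Id3 in control was past it in 3 of 10. In iSuRe-HadCre, Id2 (2.07) was higher and Id1 (0.510) lower, 1 and 1 beside 5.18% and 9.3%.

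Id1 was the member called in the same direction in all 3 genotypes. Its ratio of liver to heart was at most 0.826 in every alternative of the 3 genotypes, that value coming from iSuRe-Cre under the hashtag rule that put 6214 cells in that group. Bmpr2 and Smad6 were above 1 in liver in all 3 genotypes, with 1.22 and 1.39 in iSuRe-HadCre. Id3 was lower in liver in control and iSuRe-HadCre (0.814) and higher in iSuRe-Cre (1.14, or 0.874 under the 3-times hashtag rule).

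**Figure D5:**
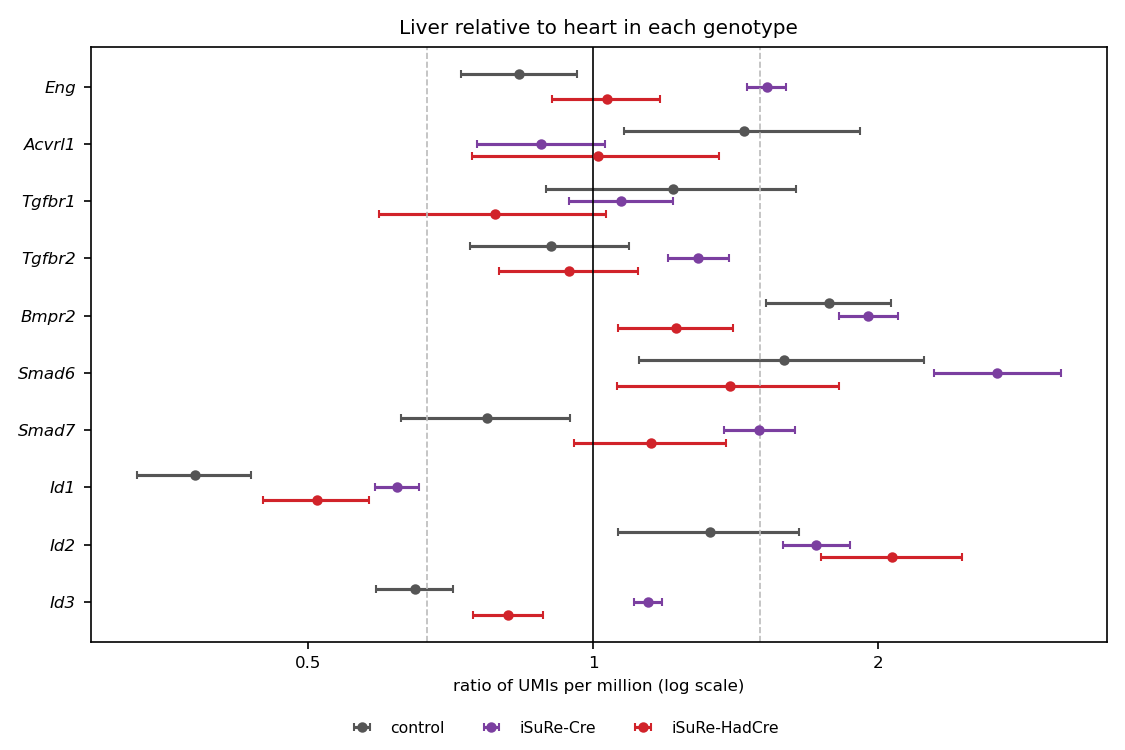
Ratios of liver to heart levels within each genotype (x axis, log scale) for the 10 genes, with 95% counting intervals and dashed lines at 0.667 and 1.5. Id1 lies below 0.667 in control (0.379), iSuRe-Cre (0.620) and iSuRe-HadCre (0.510).

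The wider pathway was followed through 62 other genes, of which 21 passed the mean of 50 CPM. In iSuRe-Cre against control heart, 0 of the 21 were higher and 2 were lower, Ltbp4, which anchors latent TGF-beta in the matrix, at 0.243 and the co-receptor gene Tgfbr3 at 0.551, beside 4.52% of all background features higher and 7.87% lower. In iSuRe-HadCre against control heart 4 were higher and 1 lower, beside 6.23% and 1.48%. The 4 were the ligand gene Tgfb2 (2.35), the ALK1 target gene Tmem100 (2.10) and the genes of the SMAD pathway inhibitors Skil (1.58) and Smurf2 (1.54), and the ligand gene Bmp6 was lower (0.626). In iSuRe-HadCre against iSuRe-Cre heart 8 were higher and 0 lower, beside 18.9% and 3.62%, and they were Ltbp4 (2.78), Tmem100 (2.47), Skil (2.29), Smurf2 (1.92), Acvr2a (1.62), Tgfb2 (1.61), Acvr1 (1.59) and Smad5 (1.57). These heart genes were chosen after their values were seen.

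In liver, 2 were higher and 7 lower in iSuRe-Cre against control, beside 7.97% and 8.52% of the background, and 4 were higher and 2 lower in iSuRe-HadCre against control, beside 5.78% and 3.77%. Called in the same direction in both were the ligand genes Bmp2 and Tgfb1 and the target gene Tmem100, and the others in iSuRe-HadCre were Bmp6 (2.45), Ltbp1 (1.62) and Tgfbr3 (0.615), named after their values were seen. Ltbp1 was called lower in iSuRe-Cre (0.539). Bmp2 levels in the livers were 27.4 (control), 186 (iSuRe-Cre) and 99.3 CPM (iSuRe-HadCre), with 18.8 to 23.5 CPM in heart. It passed the mean of 50 CPM only through the iSuRe livers, the groups in which it was called higher, so its calls rest partly on that choice. Tgfb1 was at 68.0, 179 and 142 CPM in control, iSuRe-Cre and iSuRe-HadCre liver. Tmem100 was at 212, 37.7 and 97.0 CPM in the same order. In iSuRe-HadCre against iSuRe-Cre liver 8 of the 21 were higher and 2, Bmp2 and Tgfbr3, lower, beside 7.84% and 5.73%.

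Between tissues the counts higher and lower in liver were 3 and 5 in control (background 10.6% and 10.5%), 2 and 4 in iSuRe-Cre (11.7% and 8.9%) and 4 and 0 in iSuRe-HadCre (5.18% and 9.3%). The receptor SMAD gene Smad1 was lower in liver in control (0.629) and iSuRe-Cre (0.594), as was Fkbp1a, whose product holds type I receptors inactive, at 0.660 and 0.612. The ligand gene Bmp2 was higher in liver in iSuRe-Cre (9.20) and iSuRe-HadCre (4.23), the groups through which it passed the filter, and Tgfb2 in control (3.63) and iSuRe-HadCre (1.99). Ltbp1 was also higher in liver in control (240 against 142 CPM) and iSuRe-HadCre (388 against 113 CPM), but not in iSuRe-Cre (129.3 against 129.2 CPM). No gene of the list was called in the same direction in all 3 genotypes, so those named here were chosen after their values were seen.

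Across the 9 gates with at least 50 cells, the genes of the table whose log levels were most like those of a member were listed by Pearson's r over 3716 genes. For Eng they were Lars2 (0.990), Tek (0.988) and Flt1 (0.988), the last 2 being endothelial receptor genes. For Id1 they were Hes1 (0.968), a target of Notch, Cfap20 (0.949) and Nsg1 (0.941). For Acvrl1 they were Mapk3 (0.969), Tagln2 (0.962) and BC028528 (0.959). With 9 points from 1 library these are descriptions, and the median depth of the gates ran from 7035 to 22417 UMIs per cell.

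Among the members, the gate levels of Eng and Acvrl1 had r of 0.8995, Id1 and Id3 0.878, Bmpr2 and Smad6 0.889 and Smad6 and Smad7 0.847, over the same 9 gates. Between single cells Id1 and Id3 had the largest r of all member pairs in the heart groups, 0.551, 0.524 and 0.543 for control, iSuRe-Cre and iSuRe-HadCre, and 0.296 in iSuRe-Cre liver. Eng and Acvrl1, alike between gates, had r of 0.170, 0.141 and 0.206 in those groups and -0.0366 in iSuRe-Cre liver. Cells of a group share their library, and the counts of Acvrl1 per cell are sparse.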

How the data were processed

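Gene expression and hashtag reads of 1 pooled library were listed as 2 samples. The authors aligned them with Cell Ranger 7.1.0 to GRCm38, using Ensembl genes plus the transgenes. The deposited values are raw UMI counts of 2755147 barcodes, neither filtered nor normalized. Seurat is also named in the submitters' processing notes. The labels tie no group to another 7 features of the hashtag panel, which were set aside. Gene positions are those of GENCODE on GRCm38.

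Barcodes were kept with 2000 to 75000 gene UMIs, more than 500 genes detected and mitochondrial and haemoglobin shares below 5%. A cell entered a group with at least 25 UMIs of its hashtag (140 for that of iSuRe-Cre liver), the other 5 hashtags below their minimum, and at least 1 Cdh5 UMI. The 6103 Cdh5-positive cells without a hashtag at its minimum and the 156 with more than 1 were left out of the groups. Gates were sets of minimum UMIs of marker genes. The gates of Alb with Ttr and of Stmn2 with Elavl4, and the widened Gja5 and Vwf gate, were added after seeing the data, since 5 of the gates listed at first held fewer than 50 cells.

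UMIs were summed per group. Intervals are exact 95% Poisson intervals for levels and exact conditional intervals for ratios. With 1 sample per group there is no spread between animals. The rule for named genes took all 10 members and pathway genes past 1.5-fold in the same direction in both alleles against control in a tissue, or in all 3 tissue comparisons, which gave Bmp2, Tgfb1 and Tmem100. The other pathway genes were named after their values were seen. Members, lists and gates were chosen with earlier results of these data known. The comparison step was checked on simulated counts. Alternatives changed the Cdh5, WPRE, hashtag and quality limits, scaling, weighting, free RNA, depth and cell makeup. Python 3.11.15, numpy 2.4.6, scipy 1.17.1 and pandas 2.3.3 were used.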

Additional observations from a re-analysis of the deposited data

Results flagged for a closer look

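Eng and Id3 had ratios of iSuRe-Cre to control on opposite sides of 1 in heart and liver, with intervals that did not include 1. Eng was at 0.897 in heart and 1.64 in liver, and Id3 at 0.721 in heart and 1.27 in liver. Each ratio compares 1 sample with 1 sample, and the difference between the tissues was not tested. The liver groups differed in Stab2, at 1353 CPM in iSuRe-Cre and 23.9 CPM in control, and without the cells that hold Stab2 the liver ratios were 1.30 for Eng and 1.38 for Id3. When the highest hashtag had to be at least 3 times the next, the liver ratios were 0.885 for Eng and 0.941 for Id3, on the same side of 1 as the heart ratios reported. That rule let in cells without a hashtag at its minimum.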

How the results depend on the processing

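Of 101 alternative counts of members past 1.5-fold over the 9 comparisons, 78 were within 1.5 times the reported count and 23 were not. In iSuRe-Cre against control heart (3 reported) the count was 1 with the WPRE criterion, 5 with each cell weighted equally and 5 over cells of 4000 to 20000 UMIs. For iSuRe-HadCre against control heart (2 reported) it was 4 below 6000 genes detected or over those depths, and 1 with equal weights or under the 3-times hashtag rule. Between the alleles in heart (7 reported) it was 3 with the WPRE criterion and 4 with size factors. For iSuRe-Cre against control liver (2 reported) it was 1 with equal weights and 1 under that hashtag rule. For iSuRe-HadCre against control liver (1 reported) it was 2 with the WPRE criterion, a doubled hashtag minimum, 10% of free RNA subtracted or cells of those depths. Between the alleles in liver (1 reported) it was 3 with a doubled hashtag minimum and 2 with log-normalized Cdh5 above 0.9, the 3-times hashtag rule, fewer than 6000 genes, those depths or no Stab2. For liver against heart it was 3 in iSuRe-Cre (5 reported) over those depths and 1 in iSuRe-HadCre (2 reported) under the 3-times hashtag rule.

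That rule let in cells without a hashtag at its minimum. It put 6214 cells in iSuRe-Cre liver in place of 903, and fewer cells in every other group. Under it, Eng was at 0.885 in iSuRe-Cre against control liver and 0.770 in iSuRe-Cre liver against heart, and Acvrl1 at 0.608 in iSuRe-HadCre against iSuRe-Cre liver, each on the other side of 1. No other alternative ratio reversed a call, while 767 stayed inside the reported interval and 240 did not. Of alternative gate levels, 172 stayed inside and 88 did not. Of background shares past 1.5-fold recomputed without the filter or at 20 or 200 CPM, 15 were within 1.5 times the reported share and 12, among them all 9 without the filter, were not. For the other changes the cause was not tested. Depth ranges, removal of Stab2-positive cells, the heart ratios within the Tcf15 and Fabp4 gate and the comparison by Stab2 within iSuRe-Cre liver were chosen after seeing the data. The liver comparisons over Stab2-gated cells alone were not run, since control held 0 and iSuRe-HadCre 8 such cells. No paired analysis was possible because each group is 1 sample. Depth limits the liver ratios of Acvrl1, Tgfbr1 and Smad6, which rest on 50 to 70 UMIs in control and 58 to 77 in iSuRe-HadCre.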
